A study of Homo sapiens with 101 samples.

Results

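The collagen genes examined here were human genes whose symbol is COL, a number, A and a number, without COL17A1, which was not analysed. Of 19774 genes with a probe set that names 1 gene, 43 were collagen genes, and each was represented by whichever of its probe sets was brightest on average across the arrays. A gene was kept where the mean of any group reached 4 on the log2 scale of the deposited values. This left 21 collagen genes among 11496 genes tested, while 22 collagen genes stayed under 4 in every group. Array medians were 2.89 to 3.54, and a group mean under 4 was read as not well above background. Of the 21 genes, COL22A1 and COL5A2 passed only through treated groups, since their highest control means were 3.98 and 3.96.

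HT1080 is a human fibrosarcoma cell line, and the series set 11 compounds, each at 1 dose chosen to raise total p53 by about the same factor of 1.5, against its control. Against the pooled solvent control, DMSO_pooled, stand MMC (mitomycin C at 0.1 µM), NCS (neocarzinostatin at 10 ng/ml), H2O2 (hydrogen peroxide at 100 µM), ENU (ethylnitrosourea at 2 mM), tBHQ (tert-butylhydroquinone at 200 µM) and GAD at 2 mM. The other compounds have a control of their own: BRO (600 µM) against BRO_DMSO, methyl methanesulfonate (MMS, 200 µM) against MMS_CTL, curcumin (CUR, 10 µM) against CUR_DMSO, etoposide (ETP, 0.3 µM) against ETP_DMSO and quercetin (QUE, 30 µM) against QUE_DMSO. GAD and BRO are known here only by these codes, the exposure time was not given in the sources used here, the MMS control is labelled only CTL, and the first 6 compounds were tied to DMSO_pooled because no other control carries their names. Per the labels, stocks were made in DMSO and the vehicle was kept at 0.1%. MMC and H2O2 have 5 replicates and every other group has 6. The labels do not say whether replicates were separate cultures, so p-values measure only the spread between these samples, which may be technical. Since the 6 compounds share DMSO_pooled, a shift of that control would enter all of their differences, and their values are given side by side without any test of likeness.

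Collagens are the main structural proteins of the extracellular matrix, built from 3 chains wound into a triple helix. Fibrillar collagens, such as types I and V, assemble into the banded fibrils of connective tissue, and fibril-associated collagens (FACITs) bind to the fibril surface. Type IV collagen forms the network of basement membranes, which types XVIII and VII join as a heparan sulfate proteoglycan core and as anchoring fibrils. Types VIII and X form short-chain networks, type VI forms beaded microfibrils, and type XIII spans the plasma membrane. HT1080 cells are known as producers of type IV collagen and have long served as a source of it.

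The arrays gave 100 samples after 1 repeated array was averaged with its partner. The 6 sets of compounds with their control seem to have been normalized apart, with array medians of 2.89 to 2.92 in the BRO set and 3.48 to 3.54 in the ETP set, so levels are compared within a set only. ETP replicate 2 and QUE replicate 2 stood apart, with values over all tested genes that departed from the mean of their group's other samples by an SD of 0.692 and 0.621, against 0.156 to 0.428 in the other 98 samples. The mesenchymal markers VIM (12.81 to 13.25 over group means), CD44 and FN1 were high, THY1 was under 4 throughout, and the keratins KRT8 (7.87 to 8.96) and KRT18 (9.77 to 11.14) were present while CDH1 and EPCAM were under 4. All 5 endothelial markers were under 4, as were 4 of 5 immune markers, the exception being CD68.

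Over the 231 values of 21 genes in 11 compounds, 44 passed an adjusted p of 0.05 (limma, Benjamini-Hochberg over all tested genes of a comparison) with at least a 1.5-fold difference. Of these 38 were lower and 6 higher than the control, and 26 of the 44 were in GAD or MMS. The matching totals over all genes were not counted, and GAD also had the highest shares of all genes called in either direction. These pooled counts are therefore no result about collagen genes in particular. In 28 of the 44 both groups lay at or above 4, in 13 only one did, and in 3 neither did. MMS lowered 14 of 21 collagen genes (median log2 fold change -0.80 against 0.06 over all genes) and raised none, where 6.56% of all genes fell and 4.46% rose. GAD lowered 10 and raised 2 (median -0.57 against 0.03), where 15% of all genes fell and 11.1% rose. With group means under 4 set to 4, the collagen medians were -0.43 in MMS and -0.47 in GAD. All 6 MMS samples lay below all 6 MMS_CTL samples in 11 collagen genes, against 8.43% of all genes, and all 6 GAD samples lay below all 6 DMSO_pooled samples in 9, against 18.4% of all genes.

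The remaining compounds moved fewer collagen genes. ENU lowered 3 and raised 2 (median -0.16), against 6.11% and 4.76% of all genes. tBHQ lowered 5 and raised none (median -0.33), against 4.44% lower and 5.39% higher. BRO lowered 2 (median -0.34; 4.93% of all genes lower and 2.46% higher), CUR lowered 2 (median -0.16; 0.931% lower and 1.27% higher) and QUE lowered 2 (median 0.13; 6.65% lower and 6.38% higher). In the other direction, NCS raised 1 (median 0.39; 1.48% of all genes higher and 0.966% lower) and ETP raised 1 (median 0.19; 2.06% higher and 0.618% lower). For MMC and H2O2 limma called no collagen gene, where 0.165% and 0.931% of all genes were called in either direction. The counts above come from fits that leave out the replicate number. With the number as a block, MMC still had 0 collagen calls, H2O2 had 3 and NCS 4, and the share of all genes called was not counted. In the fits without the block, 2 of 21 collagen genes in MMC and 6 of 21 in H2O2 had an unadjusted p under 0.05 (limma). The share of all genes at that threshold was not counted, so no excess can be read from these numbers. Without QUE replicate 2, QUE had 3 lower calls and 1 higher, the added ones being COL1A1 and COL22A1 (adjusted p 0.022, control under 4), where 9.73% of all genes fell and 9.16% rose. Without ETP replicate 2, ETP had 2 higher calls, where 2.66% of all genes rose. The arrays read RNA of whole cultures, so fewer cells of a kind and less RNA per cell cannot be told apart.

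**Figure D1:**
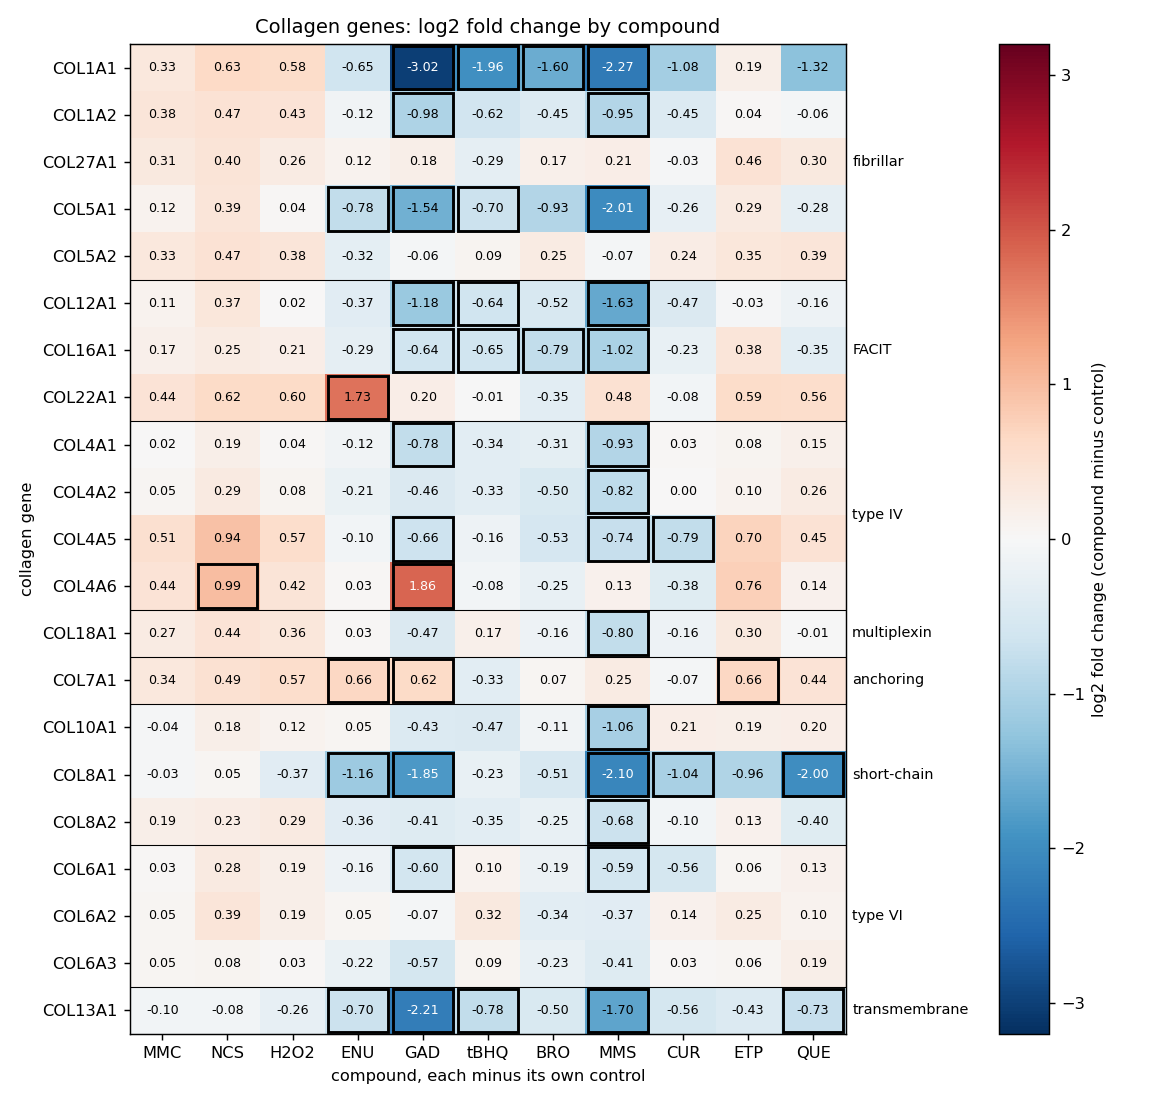
Log2 fold change of the 21 collagen genes (rows, grouped by class) in 11 compounds (columns), each minus its own control; boxes mark values that passed adjusted p 0.05 and 1.5-fold. Most boxes stand in the GAD and MMS columns, but the matching share of calls over all genes was not counted. COL1A1 under GAD is the lowest value at -3.02. The highest fitted values are COL4A6 under GAD at 1.86 and COL22A1 under ENU at 1.73, which with their control mean set to 4 are at least 1.44 and 1.51.

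All 10 collagen genes that GAD lowered were also lowered by MMS, which has another control. They are 100% of the GAD list and 71.4% of the 14 in the MMS list, whereas over all tested genes 618 were lowered by both, 35.7% of the 1730 lowered by GAD and 82% of the 754 lowered by MMS. The 4 genes that MMS alone lowered of this pair were COL4A2, COL18A1, COL10A1 and COL8A2. COL18A1 and COL4A2 differed from control under GAD by -0.47 ± 0.11 (SE) and -0.46 ± 0.14, short of 1.5-fold, with adjusted p of 0.0023 and 0.013 (limma).

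Among fibrillar collagens 5 of 11 genes passed the level filter, and on the probe sets used the largest fall was that of COL1A1 under GAD. COL1A1 (17:50184101-50201631, GRCh38.p14), the gene of the alpha 1 chain of type I collagen, ran from 3.82 over a median of 4.73 to 5.97 in GAD samples, against 6.43, 7.89 and 8.45 in DMSO_pooled samples. The groups did not overlap, and the log2 fold change was -3.02 ± 0.37 (SE, n = 6 each), an 8.12-fold lower level with an adjusted p of 1.2e-05. In tBHQ samples COL1A1 had a lowest, median and highest value of 4.72, 5.68 and 7.22 (-1.96 ± 0.42, adjusted p 0.0031), and their upper end overlapped with DMSO_pooled.

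COL1A1 also fell in MMS and BRO, with wide spreads. Its MMS samples ran from 4.75 over 6.13 to 7.31, against 7.10, 8.58 and 9.04 in MMS_CTL samples (-2.27 ± 0.43, adjusted p 0.0014). BRO samples gave 3.62, 5.21 and 6.52, against 5.67, 6.61 and 7.73 in BRO_DMSO samples (-1.60 ± 0.46, adjusted p 0.019). A second probe set of COL1A1, with a mean of 5.10 over all arrays, gave smaller differences of -0.73 in GAD, -0.83 in MMS, -0.62 in tBHQ and -0.40 in BRO, so the size of the fall depends on the probe set, and in BRO the call was lost (adjusted p 0.074). With all COL1A1 probe sets averaged, including sets with means of 3.82, 3.01 and 2.43, the tBHQ and BRO differences were -0.57 and -0.50, short of 1.5-fold.

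COL1A1 samples that share a replicate number moved together, and with the number as a block 5 more compounds were called. In NCS samples COL1A1 was above the DMSO_pooled sample of the same number in 6 of 6 pairs, by 0.38 to 1.05 (0.63 with the block, adjusted p 0.0014, against 0.31 without it). In H2O2 it was above in 5 of 5 pairs, by 0.36 to 0.84 (0.59, adjusted p 0.011, against 0.55). In ENU it was below in 6 of 6 pairs, by -1.09 to -0.14 (-0.65, adjusted p 0.0026, against 0.23). CUR gave 6 of 6 pairs below (-1.08, adjusted p 0.0063, against 0.15), and QUE 5 of 6 (-1.32, adjusted p 0.015, against 0.071).

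**Figure D2:**
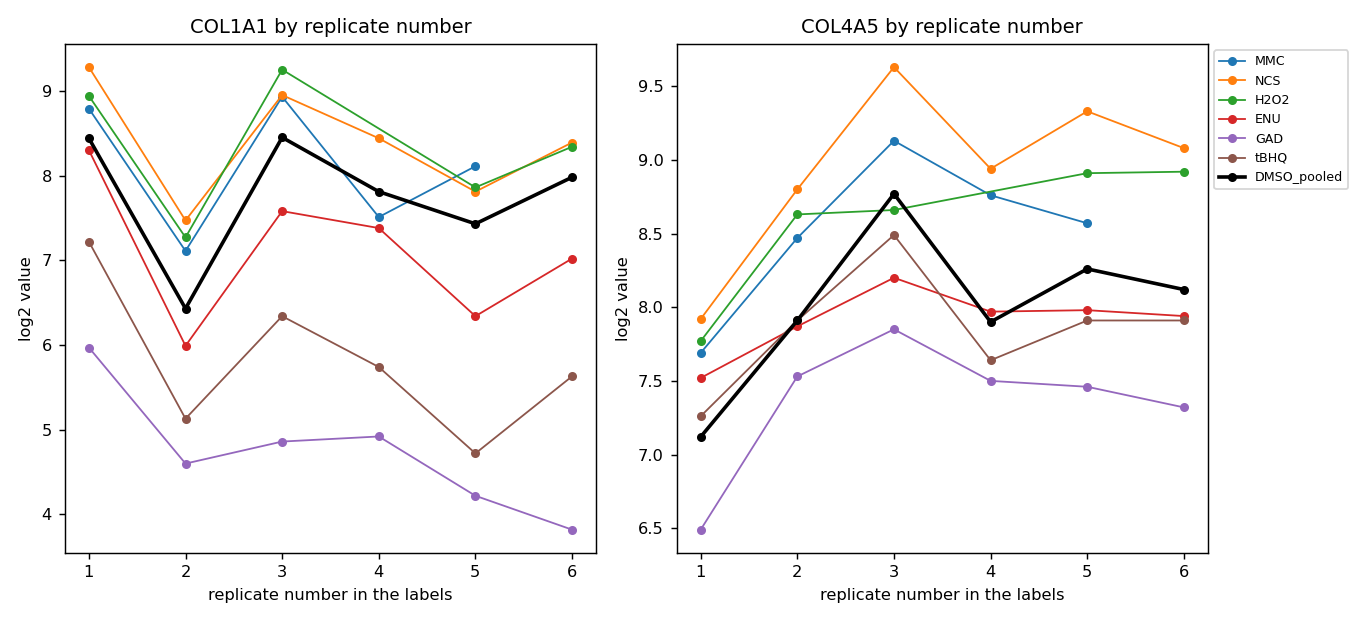
COL1A1 (left) and COL4A5 (right) log2 values by replicate number in the labels, with 1 line per group of the DMSO_pooled set; lines only join samples of 1 group, and numbers have no order. H2O2 has no replicate 4 and MMC no replicate 6. For COL1A1 replicate 2 of DMSO_pooled is the lowest control at 6.43 and replicate 2 is also the lowest sample in MMC, NCS, H2O2 and ENU.

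QUE replicate 2 stood apart in type I collagen. It read 7.90 for COL1A1, while the other 5 QUE samples ran from 4.37 to 6.15, against 5.99 to 7.58 in QUE_DMSO samples. Without that sample the log2 fold change of COL1A1 was -1.81 ± 0.34 (adjusted p 9e-04), and with it the difference did not pass (-1.32 ± 0.53, adjusted p 0.071). MMC, with 7.11, 7.51, 8.11, 8.79 and 8.93, and ETP, with 5.62 to 8.44 around a median of 7.35, overlapped with their controls (0.33 ± 0.40 and 0.19 ± 0.38), and without ETP replicate 2 the COL1A1 difference in ETP was 0.50 ± 0.28 (adjusted p 0.27).

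COL1A2, the alpha 2 chain that joins COL1A1 in type I collagen, moved less. Its GAD samples ran from 3.52 over 4.12 to 5.17, against 4.67, 5.17 and 5.87 in DMSO_pooled samples (-0.98 ± 0.25, adjusted p 0.0039). Its MMS samples ran from 3.42 over 4.30 to 5.07, against 4.52, 5.10 and 5.85 in MMS_CTL samples (-0.95 ± 0.28, adjusted p 0.018). In both compounds the groups overlapped. With its probe sets averaged, including one at background (mean 2.59), COL1A2 in MMS was short of 1.5-fold (-0.53). Under tBHQ the difference of -0.62 passed only with the replicate block (adjusted p 0.0013, against 0.059).

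COL5A1 (9:134641803-134844843, GRCh38.p14), the main chain of type V collagen, which sets fibril width, fell under 4 compounds. MMS samples ran from 4.32 over 4.71 to 5.43, entirely below the 6.26, 7.04 and 7.29 of MMS_CTL samples (-2.01 ± 0.23, adjusted p 2.8e-05, 4.02-fold). GAD samples ran from 4.47 over 4.94 to 5.06, also below all DMSO_pooled samples at 5.45, 6.52 and 7.06 (-1.54 ± 0.22, adjusted p 3.4e-05). The ENU samples (5.19, 5.61, 6.08; -0.78 ± 0.23, adjusted p 0.02) and tBHQ samples (5.10, 5.74, 6.19; -0.70 ± 0.25, adjusted p 0.048) overlapped with DMSO_pooled. The tBHQ call was lost when any 1 of 9 samples was left out (adjusted p up to 0.11).

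For COL5A1 in BRO, samples of 3.41, 4.96 and 5.64 stood against 4.29, 5.76 and 6.36 in BRO_DMSO samples, and the difference of -0.93 passed only with the replicate block (adjusted p 0.00012, against 0.11). The values in MMC (5.96, 6.23, 6.56, 6.72 and 7.03), NCS (6.16 to 7.29), H2O2 (6.04, 6.20, 6.23, 6.50 and 7.12), ETP (5.82 to 6.81) and QUE (5.03 to 7.17) overlapped with their controls, with log2 fold changes of 0.12, 0.39, 0.04, 0.29 and -0.28. In the CUR set both groups were under 4. COL5A2, the partner chain of type V, was under 4 in both groups of 9 compounds and was not called in any, and COL27A1, a fibrillar collagen of developing cartilage, ranged from -0.29 to 0.46 and was not called either.

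**Figure D3:**
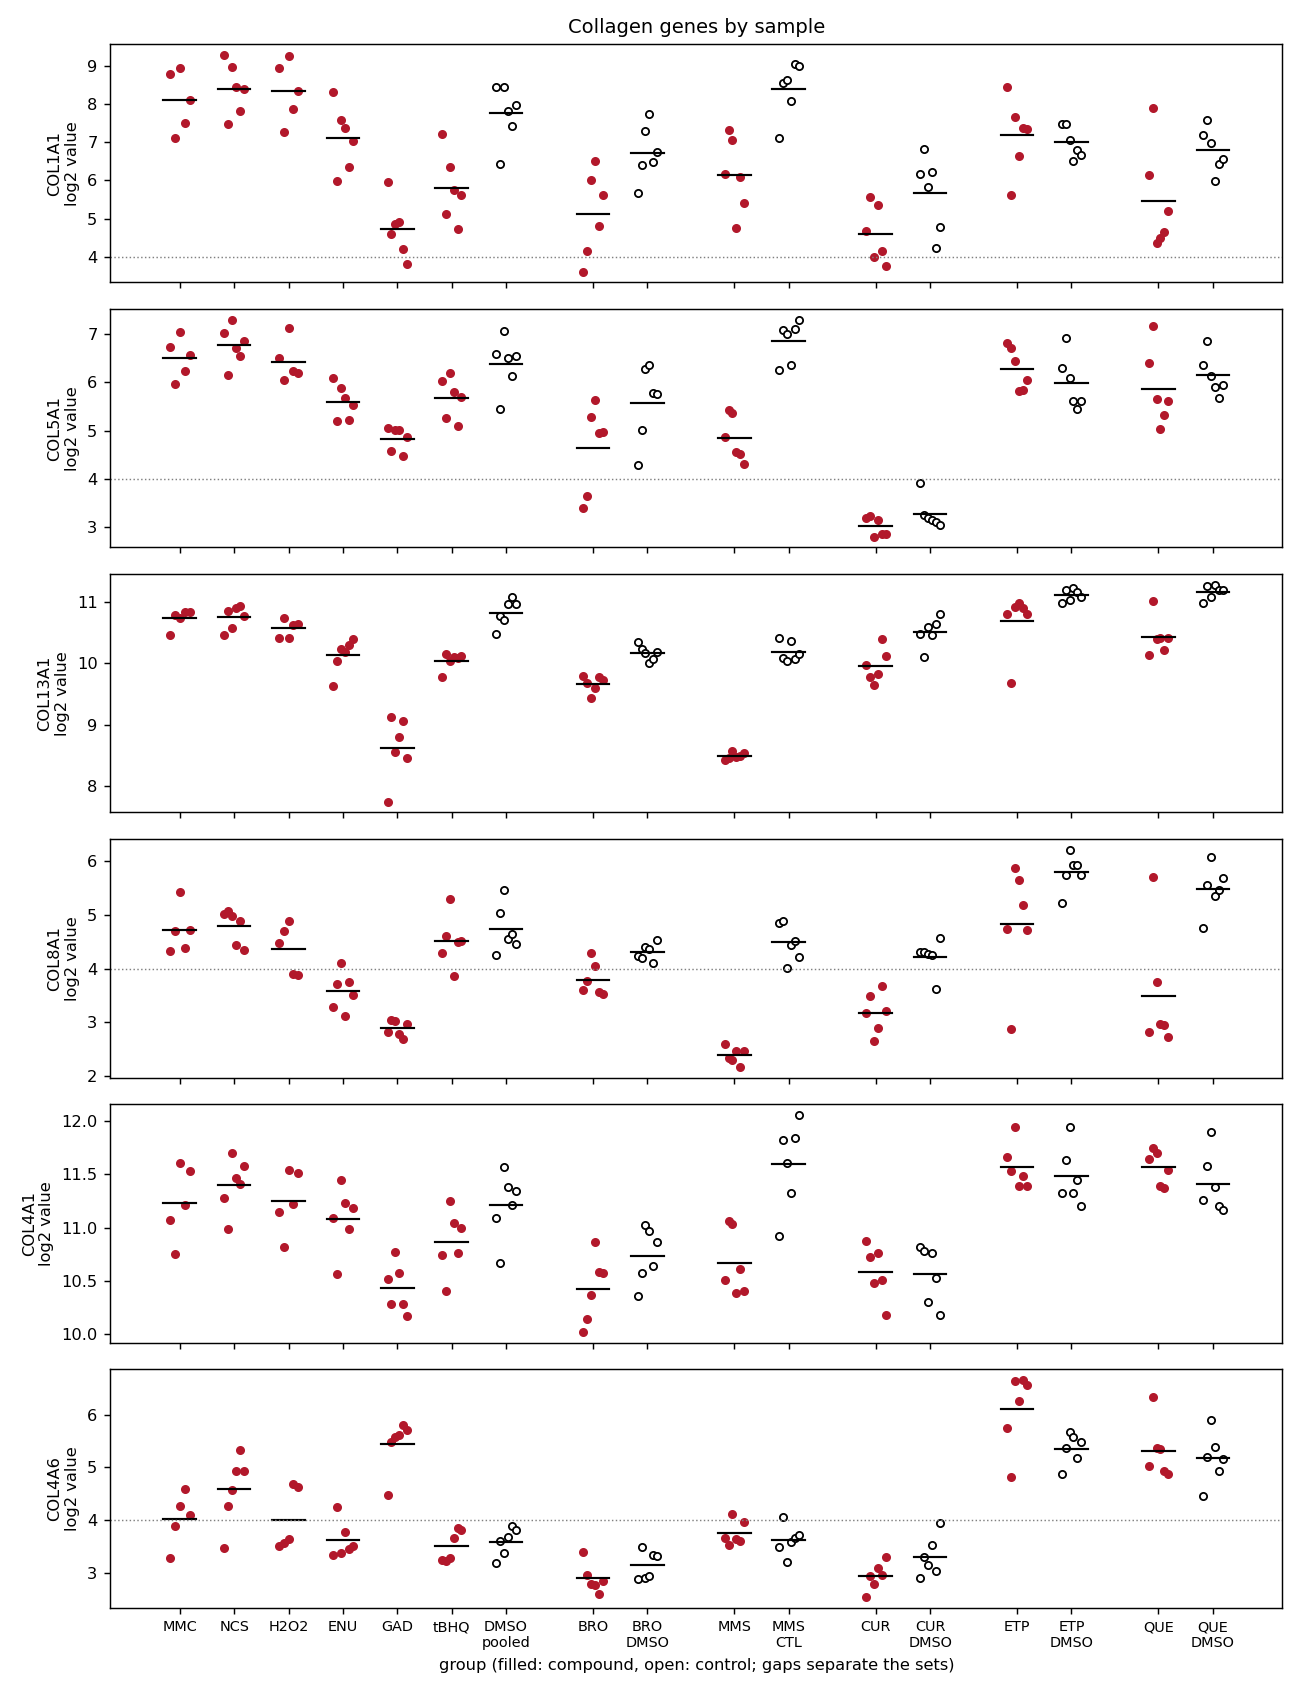
Log2 value of each sample for COL1A1, COL5A1, COL13A1, COL8A1, COL4A1 and COL4A6; filled points are compounds, open points controls, bars the group mean, and the dotted line the level of 4. Axes differ between genes: COL13A1 in the 6 MMS samples spans only 8.42 to 8.56, below 10.03 to 10.42 in MMS_CTL samples, while COL1A1 samples of most groups spread over 1 log2 unit or more.

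Of the FACITs 3 of 10 genes passed. COL12A1, which codes for the long chain of type XII collagen on fibril surfaces, had MMS samples from 6.56 over 7.0 to 7.66, against 8.40, 8.72 and 8.95 in MMS_CTL samples (-1.63 ± 0.18, adjusted p 1.9e-05). Its GAD samples ran from 6.95 over 7.25 to 7.42, against 8.23, 8.38 and 8.71 in DMSO_pooled samples (-1.18 ± 0.11, adjusted p 7.1e-07). Neither pair overlapped, nor did the tBHQ samples at 7.48, 7.84 and 7.98 (-0.64 ± 0.11, adjusted p 0.00075). COL12A1 was 0.37 ± 0.09 above control in NCS and below it in BRO (-0.52 ± 0.13), with adjusted p of 0.031 and 0.0083, both short of 1.5-fold. In MMC (8.29, 8.33, 8.52, 8.62 and 8.77), H2O2 (8.20, 8.29, 8.42, 8.49 and 8.68), ETP (8.19 to 9.09) and QUE (7.53 to 8.88) it overlapped with control, and ENU (7.71, 8.06, 8.36) and CUR (6.96, 7.40, 7.95) differed by -0.37 and -0.47.

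COL16A1, a second FACIT, was read near background in all sets, with control means of 3.79 to 4.35. It was called lower in MMS, where samples of 3.01, 3.39 and 3.61 stood below 4.02, 4.24 and 5.02 in MMS_CTL samples, and in BRO, where samples of 3.03, 3.32 and 3.47 stood below 3.71, 4.07 and 4.39 in BRO_DMSO samples. With means under 4 set to 4, the log2 fold change was -0.35 or lower in MMS and -0.07 or lower in BRO. For GAD (3.10, 3.35, 3.59) and tBHQ (2.77, 3.42, 3.72) against DMSO_pooled (3.65, 4.02, 4.25) both means were under 4, so no fold is given, although limma called both (adjusted p 0.00022 and 0.0059).

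COL22A1, a FACIT known from tissue junctions such as that of muscle and tendon, rose under ENU. Its ENU samples ran from 4.95 over 5.67 to 5.95, above all DMSO_pooled samples at 2.98, 3.76 and 4.39 (adjusted p 0.00011). The fitted log2 fold change was 1.73 ± 0.23, and at least 1.51 with the control mean set to 4. Among compounds with the same control, COL22A1 averaged 5.51 in ENU samples, against 4.39 in NCS, 4.37 in H2O2, 4.21 in MMC, 3.98 in GAD and 3.77 in tBHQ samples, with adjusted p of 7.4e-07 (tBHQ) to 0.0022 (H2O2) for these differences from ENU over all genes and 55 pairs of compounds (limma). GAD and tBHQ means are under 4, so no size is given for them. With the replicate block COL22A1 had an adjusted p of 0.0031 in NCS (0.22 without the block) and 0.045 in H2O2 (0.48 without it), but with the control mean set to 4 its difference was at least 0.39 and 0.37, short of 1.5-fold. Its other probe sets, with means of 2.83 and 2.52, were at background and gave 0.00 and -0.04 under ENU.

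Type IV collagen is assembled from 6 chains whose genes lie in head-to-head pairs, and 4 of the 6 passed. COL4A1 (13:110148963-110307157, minus strand) and COL4A2 (13:110307284-110513209, plus strand) start 126 bases apart, and COL4A6 (X:108155614-108439458, minus strand) and COL4A5 (X:108439838-108697545, plus strand) start 379 bases apart in GRCh38.p14. RefSeq promoter windows of 300 bases, with 31 of the 43 collagen genes and 15 of the 21 that passed having an entry, are shown for these pairs because each pair divides a short stretch of DNA between 2 genes. In the COL4A2 window (chr13:110307034-110307333, plus strand) capitals mark the 126 bases between the starts of COL4A1 and COL4A2. In the COL4A6 window (chrX:108439409-108439708, minus strand) and the COL4A5 window (chrX:108439588-108439887, plus strand) capitals mark the same 121 bases, which both windows hold on opposite strands.
COL4A2: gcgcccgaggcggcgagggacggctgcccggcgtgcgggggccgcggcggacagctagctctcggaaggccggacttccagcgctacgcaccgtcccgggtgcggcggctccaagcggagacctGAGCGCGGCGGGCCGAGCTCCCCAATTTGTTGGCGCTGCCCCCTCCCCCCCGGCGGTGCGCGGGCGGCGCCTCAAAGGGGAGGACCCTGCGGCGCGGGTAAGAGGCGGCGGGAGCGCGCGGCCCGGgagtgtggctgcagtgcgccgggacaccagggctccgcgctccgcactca
COL4A6: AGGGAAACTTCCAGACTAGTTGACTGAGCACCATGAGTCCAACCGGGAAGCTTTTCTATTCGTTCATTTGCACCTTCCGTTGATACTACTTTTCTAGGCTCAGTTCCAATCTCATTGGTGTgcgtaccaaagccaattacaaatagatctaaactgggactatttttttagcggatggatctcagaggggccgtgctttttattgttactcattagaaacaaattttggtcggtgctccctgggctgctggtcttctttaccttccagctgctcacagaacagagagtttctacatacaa
COL4A5: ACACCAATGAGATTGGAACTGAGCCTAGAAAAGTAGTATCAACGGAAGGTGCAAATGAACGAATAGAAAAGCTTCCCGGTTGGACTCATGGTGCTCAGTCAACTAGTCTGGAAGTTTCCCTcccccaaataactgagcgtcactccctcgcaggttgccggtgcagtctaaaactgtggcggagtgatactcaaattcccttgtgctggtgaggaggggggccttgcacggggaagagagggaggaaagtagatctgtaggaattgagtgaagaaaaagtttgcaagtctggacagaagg

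The windows differ in base content. G and C made up 76.7% and 77.7% of the COL4A1 and COL4A2 windows, but 49.3% and 43.7% of the COL4A5 and COL4A6 windows, against a median of 58.7% over 35116 RefSeq windows. On both strands the letters GGGCGG, the core of a GC box, occurred 2 times for COL4A1 and 1 time for COL4A2 and in neither COL4A5 nor COL4A6; 45.0% of all windows hold it. The letters CCAAT occurred 1 time each for COL4A1 and COL4A2, 2 times for COL4A5 and 3 times for COL4A6, against 34.6% of all windows with a match, and TATAAA in none of the 4, against 11.5%. The windows of each pair overlap, so some matches are counted for both genes.

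COL4A1 and COL4A2, the chains of the most widespread type IV molecule, moved by like amounts. COL4A1 had MMS samples from 10.38 over 10.56 to 11.06, against 10.92, 11.71 and 12.06 in MMS_CTL samples (-0.93 ± 0.19, adjusted p 0.0021). COL4A2 had MMS samples from 9.56 over 9.92 to 10.23, below all MMS_CTL samples at 10.24, 10.84 and 11 (-0.82 ± 0.14, adjusted p 0.00073). Under GAD COL4A1 fell (10.17, 10.40 and 10.77, against 11.28 in the median of DMSO_pooled with a range of 10.67 to 11.57; -0.78 ± 0.14, adjusted p 0.00033). COL4A2 under GAD (9.69, 9.86 and 10.21, against 9.93, 10.30 and 10.85) differed by -0.46 ± 0.14 and missed 1.5-fold (adjusted p 0.013).

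In the other compounds COL4A1 stayed between -0.34 and 0.19 and COL4A2 between -0.50 and 0.29. In the 5 MMC samples COL4A1 was 10.75, 11.07, 11.21, 11.53 and 11.61, and in the 5 H2O2 samples 10.82, 11.15, 11.22, 11.51 and 11.54, within the DMSO_pooled range but for the highest MMC sample. NCS (10.99 to 11.70), ENU (10.56 to 11.45), tBHQ (10.40 to 11.25), BRO (10.02 to 10.86), CUR (10.18 to 10.87), ETP (11.39 to 11.95) and QUE (11.37 to 11.75) all overlapped with their controls. For COL4A2 the MMC samples were 10.02, 10.19, 10.37, 10.60 and 10.74 and the H2O2 samples 10.19, 10.26, 10.33, 10.60 and 10.72. COL4A2 was lower in BRO, at 9.01, 9.39 and 9.65 against 9.5, 9.89 and 10.07 in BRO_DMSO samples (adjusted p 0.0056), and higher in QUE, at 10.59, 10.67 and 10.74 against 10.21, 10.32 and 10.69 in QUE_DMSO samples (adjusted p 0.04), both by less than 1.5-fold.

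COL4A5 and COL4A6, the chains that pair in basement membranes of skin and smooth muscle, parted under GAD. COL4A6 samples under GAD ran from 4.47 over 5.60 to 5.81, above all DMSO_pooled samples at 3.18, 3.64 and 3.88 (1.86 ± 0.20, adjusted p 3.6e-06). With the control mean set to 4 its rise was at least 1.44. COL4A5 samples under GAD ran from 6.49 over 7.48 to 7.85, against 7.12, 8.02 and 8.77 in DMSO_pooled samples (-0.66 ± 0.25, adjusted p 0.038), and were below the sample of the same number in 6 of 6 pairs. The COL4A5 call is weak in fits without the replicate block. It was lost when any 1 of 7 samples was left out (adjusted p up to 0.087), and with each array set to an equal median (adjusted p 0.064). With the block and all samples the call held, and the pairs differed by -0.92 to -0.38.

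Among compounds with the same control, COL4A6 averaged 5.44 in GAD samples, against 4.58 in NCS, 4.02 in MMC, 3.62 in ENU and 3.51 in tBHQ samples, with adjusted p of 5.4e-10 (tBHQ) to 0.0051 (NCS) for these differences from GAD. The ENU and tBHQ means are under 4, so no size is given for them. The list leaves out H2O2, where COL4A6 had a fitted difference of 0.42 from DMSO_pooled and was not called. NCS also raised COL4A6, with samples from 3.46 over 4.75 to 5.33 against 3.18, 3.64 and 3.88 in DMSO_pooled samples (0.99 ± 0.26, at least 0.58 with the control mean set to 4, adjusted p 0.033). Leaving out any 1 of 8 samples ended this call (adjusted p up to 0.075). COL4A5 in NCS, at 7.92, 9.01 and 9.63 against 7.12, 8.02 and 8.77, was above its same-numbered control in 6 of 6 pairs by 0.81 to 1.07, and passed with the replicate block (0.94 ± 0.05, adjusted p 0.00012, against 0.065 without it). A second COL4A6 probe set at background (mean 2.77) gave 1.03 under GAD and 0.21 under NCS.

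COL4A5 fell in MMS and CUR as well, though with its probe sets averaged neither call held (-0.34 and -0.42). The other probe set was at background (mean 2.5), with differences of 0.06 in MMS and -0.04 in CUR. Averaging it in lowers any difference, so the average cannot test these calls. COL4A5 in MMS samples at 7.53, 8.09 and 8.22 lay below all MMS_CTL samples at 8.32, 8.80 and 9.09 (-0.74 ± 0.15, adjusted p 0.0019). Its CUR samples at 6.82, 7.44 and 7.80 lay below all CUR_DMSO samples at 7.86, 8.21 and 8.43 (-0.79 ± 0.15, adjusted p 0.01). BRO samples, at 6.91, 7.10 and 7.26, also lay below all BRO_DMSO samples at 7.34, 7.53 and 8.09, by less than 1.5-fold (-0.53 ± 0.12, adjusted p 0.0058). COL4A5 was 7.69, 8.47, 8.57, 8.76 and 9.13 in MMC samples and 7.77, 8.63, 8.66, 8.91 and 8.92 in H2O2 samples (0.51 and 0.57, not called), and ENU (7.52 to 8.20), tBHQ (7.26 to 8.49) and QUE (8.83 to 9.67) overlapped with control.

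ETP shows COL4A5 and COL4A6 together with and without its sample that stood apart. COL4A6 was 4.81, 6.42 and 6.66 in ETP samples against 4.87, 5.42 and 5.67 in ETP_DMSO samples (0.76 ± 0.28, adjusted p 0.15), and COL4A5 was 8.96, 9.84 and 10.07 against 8.14, 9.06 and 9.58 (0.70 ± 0.23, adjusted p 0.11). Without ETP replicate 2 both passed, COL4A6 at 1.02 ± 0.18 (adjusted p 0.0036) and COL4A5 at 0.84 ± 0.21 (adjusted p 0.023). The same removal left COL7A1 at 0.57 ± 0.16, short of 1.5-fold.

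**Figure D4:**
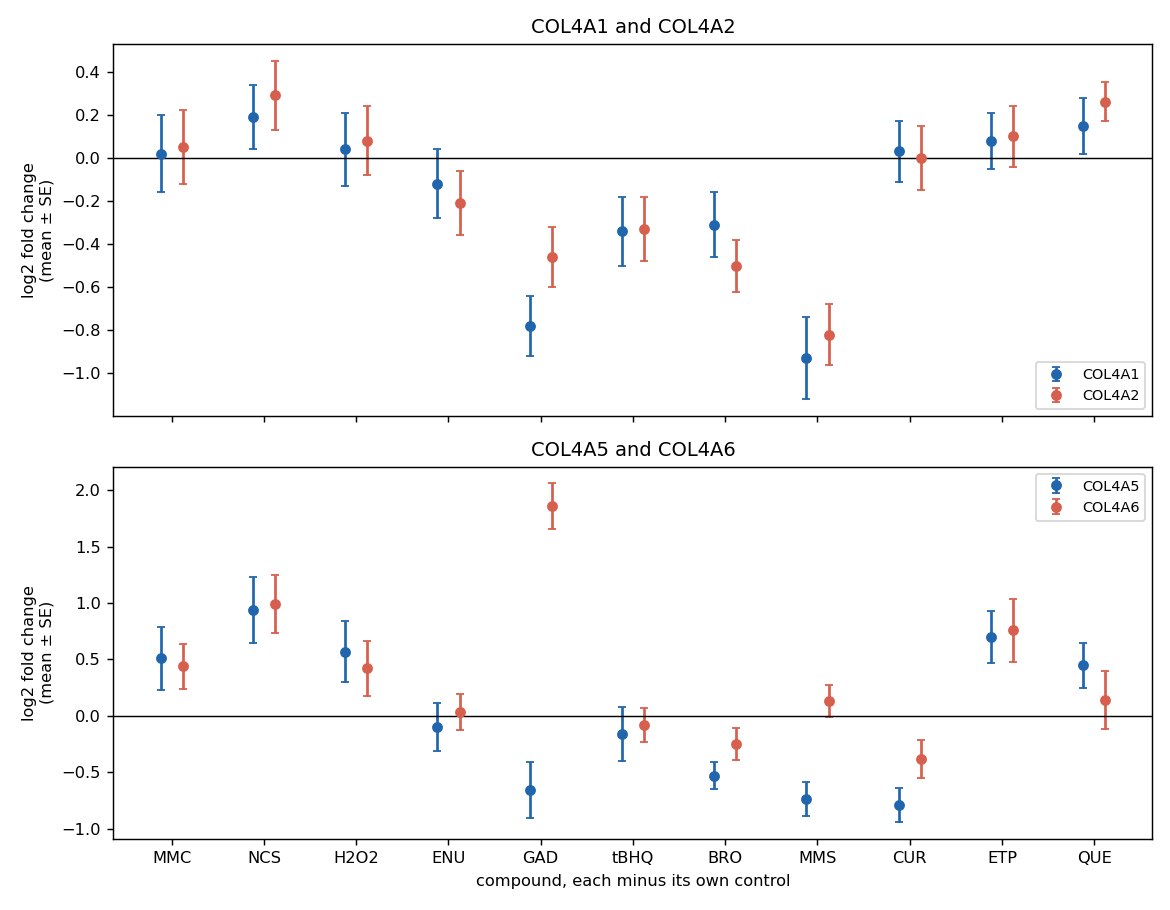
Log2 fold change with its SE (limma) of COL4A1 and COL4A2 (top) and of COL4A5 and COL4A6 (bottom) in 11 compounds, each minus its own control; axes differ. COL4A1 and COL4A2 lie within 0.32 of each other in every compound, whereas COL4A5 at -0.66 and COL4A6 at 1.86 part under GAD (fitted values; the COL4A6 control is under 4).

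The fibrillar and type IV classes can be set side by side only as a description, over 5 and 4 genes that passed. The median log2 fold change of fibrillar and type IV genes was -0.98 and -0.56 in GAD, -0.95 and -0.78 in MMS, -0.62 and -0.24 in tBHQ, -0.45 and -0.40 in BRO, and -0.32 and -0.11 in ENU. It was -0.26 and -0.19 in CUR, -0.06 and 0.21 in QUE, 0.29 and 0.40 in ETP, 0.47 and 0.61 in NCS, 0.38 and 0.25 in H2O2, and 0.33 and 0.24 in MMC. Type IV minus fibrillar ranged from -0.13 in H2O2 to 0.42 in GAD. For single samples, the median level of type IV genes minus that of fibrillar genes had an SD of 0.55 within the GAD and DMSO_pooled groups. That SD describes levels in single samples and is not the error of the gap between fold changes. Leaving out single samples moved the gap between 0.18 (without DMSO_pooled replicate 1) and 0.71 (without GAD replicate 1) in GAD and between 0.12 and 0.59 in tBHQ. With no level filter the gap turned to -0.19 in GAD and -0.36 in MMS, and with a filter at 6 it was 0.98 and 1.23, so its sign and size rest on which genes are counted. Within the fibrillar class COL1A1, COL1A2 and COL5A1 were lower in GAD and MMS, COL27A1 differed by 0.18 and 0.21, and COL5A2 was under 4 in both groups of both comparisons.

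**Figure D5:**
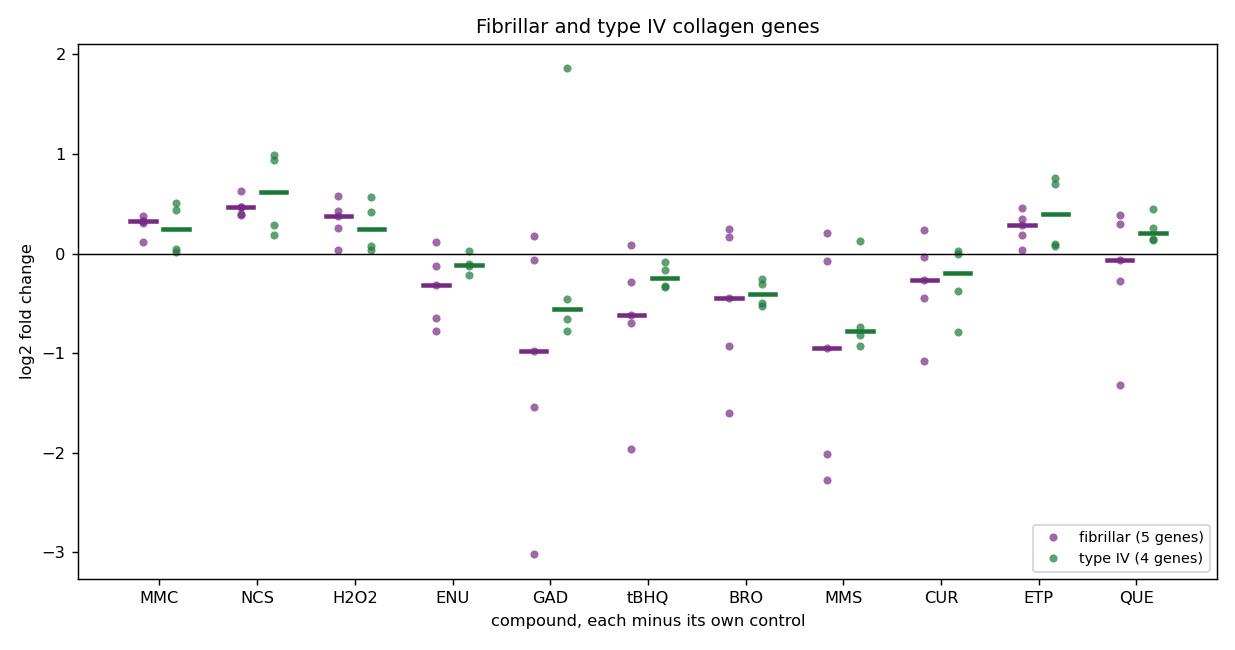
Log2 fold change of the 5 fibrillar genes (left of each pair) and the 4 type IV genes (right) that passed, by compound, each minus its own control; points are genes and bars the class median. In MMS the fibrillar points run from -2.27 to 0.21 and the type IV points from -0.93 to 0.13, so the classes overlap.

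Of the collagens that join basement membranes, COL18A1, whose C-terminal fragment is endostatin, had MMS samples at 3.25, 3.46 and 3.83, below all MMS_CTL samples at 3.98, 4.18 and 4.88 (adjusted p 0.0014), a log2 fold change of -0.31 or lower with the MMS mean set to 4. COL7A1, the collagen of anchoring fibrils in skin, is one of 3 genes called in the higher direction. Its ENU samples at 5.07, 5.29 and 5.71 lay above all DMSO_pooled samples at 4.21, 4.82 and 4.88 (0.66 ± 0.14, adjusted p 0.0033). GAD samples at 4.64, 5.48 and 5.79 (0.62 ± 0.20, adjusted p 0.016) overlapped with DMSO_pooled, and ETP samples at 4.27, 4.54 and 4.99 overlapped with ETP_DMSO samples at 3.49, 3.81 and 4.36 (at least 0.55, adjusted p 0.041).

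The 3 COL7A1 calls sit close to 1.5-fold, and each was lost when some single sample was left out: 2 of 12 samples in ENU, 5 of 12 in GAD and 8 of 12 in ETP. A second COL7A1 probe set, with a mean of 3.88, gave 0.23 in ENU, 0.27 in GAD and 0.27 in ETP, none of which passed. H2O2 samples at 4.46, 4.96, 5.25, 5.66 and 5.81 passed only with the block (0.61, adjusted p 0.018, against 0.25). MMC samples were 4.57, 4.72, 5.02, 5.18 and 5.49, tBHQ samples 4.12, 4.39 and 4.54, and the other compounds ran from -0.07 to 0.49. For COL7A1 ENU minus tBHQ was 0.99 (adjusted p 3e-06).

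COL8A1 (3:99638594-99799217, GRCh38.p14), a short-chain collagen of vessel walls and of the membrane behind the cornea, fell under 5 compounds, all of them to background. MMS samples at 2.17, 2.39 and 2.59 lay below MMS_CTL samples at 4.01, 4.47 and 4.88 (-2.10 ± 0.14, adjusted p 4e-07), and GAD samples at 2.69, 2.89 and 3.04 below DMSO_pooled samples at 4.25, 4.59 and 5.47 (-1.85 ± 0.17, adjusted p 9.3e-07). ENU samples at 3.12, 3.61 and 4.10 were also below all DMSO_pooled samples (-1.16 ± 0.20, adjusted p 0.00082). CUR samples at 2.65, 3.18 and 3.67 overlapped with CUR_DMSO samples at 3.62, 4.29 and 4.56 (-1.04 ± 0.18, adjusted p 0.0064). With the treated means set to 4 the falls were -0.48 or lower in MMS, -0.74 in GAD, -0.74 in ENU and -0.22 in CUR. The other COL8A1 probe sets, with means of 2.64 and 2.21, were at background. They differed from control by -0.04 and 0.07 in MMS and by -0.13 and 0.09 in GAD, so the fall rests on the brightest probe set.

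QUE lowered COL8A1 in 5 of 6 samples. These ran from 2.73 to 3.74, below all QUE_DMSO samples at 4.75, 5.51 and 6.08, while QUE replicate 2 read 5.70. The log2 fold change was -2.0 ± 0.44 with that sample (adjusted p 0.0066) and -2.44 ± 0.23 without it (adjusted p 6.2e-06), and -1.48 or lower with the QUE mean set to 4. ETP replicate 2 was the lowest ETP sample for COL8A1 at 2.87, the other 5 running from 4.72 to 5.87 against 5.23, 5.83 and 6.21 in ETP_DMSO samples, and the difference was -0.96 ± 0.40 with it and -0.56 ± 0.22 without it, neither of which passed. The MMC samples (4.33, 4.38, 4.69, 4.72 and 5.43), H2O2 samples (3.88, 3.89, 4.48, 4.69 and 4.89), NCS samples (4.34 to 5.07) and tBHQ samples (3.86 to 5.29) overlapped with DMSO_pooled. BRO samples at 3.52, 3.68 and 4.28 were lower than BRO_DMSO samples at 4.10, 4.29 and 4.53 in 6 of 6 pairs (-0.51 ± 0.13, adjusted p 0.0093), short of 1.5-fold.

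The other short-chain genes were called only in MMS. COL10A1, known from growth plate cartilage, had MMS samples at 2.63, 3.37 and 4.13 against 3.05, 4.55 and 5.20 in MMS_CTL samples (-0.43 or lower, adjusted p 0.041), and the call was lost when any 1 of 6 samples was left out. COL8A2, the partner of COL8A1, had MMS samples at 3.02, 3.09 and 3.39, below MMS_CTL samples at 3.55, 3.78 and 4.23 (adjusted p 0.00067), with both means under 4.

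Of type VI collagen 3 of 5 genes passed, and 1 of them was called. COL6A1, a chain of the beaded microfibrils around cells, had GAD samples at 7.42, 7.46 and 7.68, below DMSO_pooled samples at 7.91, 8.17 and 8.19 (-0.60 ± 0.07, adjusted p 6.2e-06). Its MMS samples at 7.38, 7.50 and 7.66 lay below MMS_CTL samples at 7.86, 8.12 and 8.37 (-0.59 ± 0.10, adjusted p 5e-04). Both differences are at the edge of 1.5-fold, and setting arrays to an equal median moved them to -0.48 and -0.51. NCS samples at 8.25, 8.39 and 8.61 lay above all DMSO_pooled samples by less than 1.5-fold (0.28 ± 0.08, adjusted p 0.04).

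In the other compounds COL6A1 overlapped with control. MMC samples were 8.07, 8.10, 8.15, 8.16 and 8.23, H2O2 samples 8.17, 8.20, 8.21, 8.42 and 8.51, and ENU samples 7.77, 7.91 and 8.23. CUR samples spread from 7.38 over 7.81 to 8.39 against 8.04, 8.54 and 8.67 in CUR_DMSO samples (-0.56 ± 0.19, adjusted p 0.096), while tBHQ (8.12 to 8.32), BRO (7.50 to 7.85), ETP (9.23 to 9.57) and QUE (9.23 to 9.44) differed by -0.19 to 0.13. COL6A3, the long chain of type VI, was below all controls in GAD (11.38, 11.61 and 11.89 against 11.98, 12.21 and 12.43; -0.57 ± 0.10, adjusted p 0.00021) and in MMS (11.52, 11.81 and 11.91 against 12.09, 12.20 and 12.28; -0.41 ± 0.07, adjusted p 0.00097), both short of 1.5-fold. COL6A2 ranged from -0.37 to 0.39 and was not called.

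COL13A1 (10:69801906-69959144, GRCh38.p14), the transmembrane collagen of cell contacts and of the neuromuscular junction, had a difference below 0 in all 11 compounds and was called in 5. Its GAD samples ran from 7.74 over 8.67 to 9.12, below all DMSO_pooled samples at 10.48, 10.87 and 11.08 (-2.21 ± 0.20, adjusted p 7.7e-07, 4.63-fold). Its MMS samples at 8.42, 8.47 and 8.56 were below MMS_CTL samples at 10.03, 10.12 and 10.42 (-1.70 ± 0.08, adjusted p 3.2e-08, 3.25-fold). ENU samples at 9.63, 10.21 and 10.39 and tBHQ samples at 9.77, 10.09 and 10.15 were also below all DMSO_pooled samples (-0.70 ± 0.13 and -0.78 ± 0.10, adjusted p 0.0012 and 9e-05).

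QUE samples of COL13A1 ran from 10.14 over 10.41 to 11.01 against 10.98, 11.19 and 11.28 in QUE_DMSO samples (-0.73 ± 0.13, adjusted p 0.0027), and without replicate 2, the one that overlapped, the difference was -0.85 ± 0.08 (adjusted p 7.2e-06). BRO samples at 9.44, 9.71 and 9.80 lay below BRO_DMSO samples at 10.01, 10.17 and 10.34 by less than 1.5-fold (-0.50 ± 0.08, adjusted p 0.00057), and CUR samples at 9.64, 9.89 and 10.40 differed from 10.10, 10.54 and 10.80 by -0.56 ± 0.14 (adjusted p 0.035). ETP samples, at 9.68, 10.86 and 10.99 against 10.99, 11.12 and 11.23, did not pass (adjusted p 0.22). MMC samples were 10.46, 10.74, 10.79, 10.83 and 10.84, H2O2 samples 10.42, 10.42, 10.62, 10.64 and 10.74, and NCS samples 10.46 to 10.93, all overlapping with DMSO_pooled (-0.10, -0.26 and -0.08). For COL13A1 GAD minus tBHQ was -1.43 (adjusted p 7.4e-14) and ENU minus GAD 1.51 (adjusted p 5.9e-15), while GAD minus MMS was -0.51 (adjusted p 0.055).

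A call under one compound and none under another is not by itself a difference, so each collagen gene was compared between all 55 pairs of compounds in a fit of all groups. Over all tested genes 22.7% of these tests passed. Among collagen genes the number of pairs ran from 6 of 55 for COL10A1 and 7 for COL6A2 to 29 for COL6A3, with 27 each for COL12A1 and COL4A5, 26 each for COL13A1 and COL6A1, 25 for COL5A1 and 22 for COL1A1. GAD and MMS, the compounds with the most calls, passed this test in 1 collagen gene, COL4A6 (adjusted p 5.6e-05). For COL4A6 DMSO_pooled, MMS and MMS_CTL were all under 4 and no size is given. For COL1A1 the difference of -0.76 between GAD and MMS had an adjusted p of 0.48. The share of all genes that passed for this pair was not counted. GAD and MMS also have different controls, and the SE for COL1A1 was 0.68, against 0.48 for GAD and tBHQ, which share one. The count of 1 gene is therefore no result about likeness of GAD and MMS. COL1A1 under NCS exceeded that under GAD by 3.66, under tBHQ by 2.59 and under MMS by 2.90 (adjusted p 2.6e-09, 1.5e-05 and 0.00067).

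Genes that make, cut, crosslink and bind collagen were counted from lists of known members. Of 9 tested genes for propeptide cutting and crosslinking, GAD lowered 8 (median -1.11, where 15% of all genes fell) and MMS 7 (median -0.78, 6.56% of all genes), with none higher. The 8 include PCOLCE, at 3.48 against 4.1 in group means, for which only -0.1 or lower is known with the GAD mean set to 4. In GAD the largest fall was that of ADAMTS3, a procollagen N-proteinase, at 3.64 against 5.72 in group means (-1.72 or lower with the GAD mean set to 4, adjusted p 1.6e-05). In MMS it was LOXL3, a lysyl oxidase relative, at 7.99 against 9.56 (-1.57 ± 0.12, adjusted p 1.4e-06). ENU lowered 1, ADAMTS3 (6.11% of all genes fell), and without DMSO_pooled replicate 2 it changed 3. QUE lowered 2 (6.65% of all genes), of which LOXL1 fell most (-1.65 ± 0.31, adjusted p 0.0034), and tBHQ lowered 2 (4.44%) and raised 1 (5.39%), PCOLCE2, an enhancer of procollagen cutting (1.51 ± 0.14, adjusted p 6.6e-06).

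Of 18 genes for chain modification, folding and export, GAD lowered 4 and raised 3 (15% and 11.1% of all genes), MMS lowered 2 (6.56%), QUE lowered 2 (6.65%) and NCS raised 1 (1.48%). The QUE count was 0 without QUE replicate 3 and 4 without QUE replicate 2. SERPINH1, the collagen chaperone HSP47, rose in GAD (9.47 against 8.46; 1.01 ± 0.08, adjusted p 2e-07) and P4HA2, a prolyl 4-hydroxylase, fell most (7.99 against 9.39; -1.40 ± 0.11, adjusted p 3.5e-07). Of 7 collagen receptors GAD lowered 5 (15% of all genes), MMS 3 (6.56%), ENU 2 (6.11%) and BRO 2 (4.93%), and the ENU and BRO counts were 1 without ENU replicate 1 or BRO replicate 1. The integrin subunit ITGA10 fell most in GAD (5.60 against 7.40; -1.80 ± 0.18, adjusted p 1.8e-06), and ITGA11 most in MMS (5.15 against 6.89; -1.74 ± 0.22, adjusted p 7.1e-05). Of 12 basement membrane partners GAD lowered 6 and raised 2 (15% and 11.1% of all genes), and MMS lowered 5 (6.56%). ENU lowered 2 (6.11%), CUR 1 (0.931%) and tBHQ 1 (4.44%), tBHQ raised 2 (5.39%) and QUE raised 3 (6.38%); single left-out samples moved the CUR count to 2. The partners lowered by GAD include HSPG2, at 3.74 against 4.44 in group means, for which only -0.44 or lower is known with the GAD mean set to 4. NID2, a nidogen that links laminin to type IV collagen, fell in MMS (5.28 against 6.90, -1.62 ± 0.14, adjusted p 2.7e-06) and rose in tBHQ (7.58 against 6.61, 0.96 ± 0.24, adjusted p 0.0087). LAMB3, a laminin chain, rose most in QUE (11.07 against 9.96, 1.11 ± 0.24, adjusted p 0.0056).

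The 22 collagen genes under 4 in every group got no test. They were the fibrillar genes COL2A1, COL3A1, COL5A3, COL11A1, COL11A2 and COL24A1, the type IV genes COL4A3 and COL4A4, and the multiplexin COL15A1. They also comprised COL6A5 and COL6A6, the FACITs COL9A1, COL9A2, COL9A3, COL14A1, COL19A1, COL20A1 and COL21A1, the transmembrane genes COL23A1 and COL25A1, and COL26A1 and COL28A1. Their highest group means ran from 2.61 for COL24A1 to 3.77 for COL9A2. COL3A1, a major partner of type I collagen in connective tissue, reached 2.99 at most over 5 probe sets, the value shown being that of the brightest one. COL17A1 was not analysed here.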

How the data were processed

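RNA of HT1080 cells was measured on Affymetrix arrays. The authors deposited log2 probe set summaries made with GCRMA and Partek, per the submitters' processing notes; versions are not given in the sources used here. Of 54613 non-control probe sets, 40914 named 1 gene in the platform annotation, 864 several and 12835 none; 41 symbols were not matched to a current one. One ETP_DMSO sample had a repeated array, and both were averaged. They differed by less than the next closest pair among the arrays compared (SD of the difference 0.179 against 0.235). Array number limits the precision.

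The members and gene lists (collagen classes, biosynthesis, processing and crosslinking, receptors, basement membrane partners, cell markers) were chosen with earlier results of these data known. Each compound was fitted against its own control with limma 3.58.1 in R 4.3.3 (lmFit, eBayes), with Benjamini-Hochberg adjustment over 11496 genes; a call needed an adjusted p under 0.05 and 1.5-fold. Per-sample values are given for collagen genes called in 3 or more compounds and for type IV genes, with others where called. Differences between compounds came from 1 fit of 17 groups, adjusted over all genes and 55 pairs. "At least" and "or lower" mark fold changes with a group mean under 4 set to 4. The script was tested on simulated data. Tables and figures were made with Python 3.11.15.

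Replicate numbers were taken to pair samples where every same-numbered pair's deviations correlated over 0.1 across genes: 0.34 to 0.84 in MMC, 0.41 to 0.83 in NCS, 0.39 to 0.80 in H2O2, 0.41 to 0.61 in ENU, 0.29 to 0.60 in GAD, 0.43 to 0.77 in tBHQ, 0.33 to 0.65 in BRO, 0.29 to 0.68 in CUR and 0.16 to 0.65 in QUE, but -0.13 to 0.32 in MMS and from -0.0022 to 0.65 in ETP. This pairing was used only in the fits with the replicate block. The main fits, the fits with a sample left out and the fit of all groups did not use it. A gene that was not called in the main fit can therefore pass with the block, as COL5A1 did in BRO (adjusted p 0.11 and 0.00012). Alternatives were a level filter of 6 or none, averaging all probe sets of each gene, a second probe set (chosen after seeing the data), equal array medians, quantile normalization, 1 fit of all groups, no fold minimum, the replicate block and leaving out each sample.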

Additional observations from a re-analysis of the deposited data

Results flagged for a closer look

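Single samples stood far from their group, by Dixon's ratio at the 95% level, in 24 of 357 combinations of a collagen gene and a group; chance gives about 1 in 20. QUE replicate 2 did so in 4 genes: COL13A1 at 11.01 (the other 5 samples at 10.14 to 10.42), COL1A2 at 6.34 (3.84 to 4.64), COL4A6 at 6.33 (4.88 to 5.37) and COL8A1 at 5.70 (2.73 to 3.74). ETP replicate 2 did so for COL13A1 at 9.68 (10.80 to 10.99) and COL18A1 at 4.95 (5.52 to 5.81). Other ETP samples were COL10A1 replicate 1 at 3.96 (3.21 to 3.38), COL6A1 replicate 3 at 9.57 (9.23 to 9.35) and COL6A3 replicate 6 at 12.47 (12.58 to 12.64), and QUE replicate 1 read 3.78 for COL10A1 (3.15 to 3.34).

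In the DMSO_pooled set, COL13A1 was low in MMC replicate 1 at 10.46 (10.74 to 10.84) and tBHQ replicate 1 at 9.77 (10.03 to 10.15). COL4A6 was low in GAD replicate 1 at 4.47 (5.48 to 5.81), COL4A5 in H2O2 replicate 1 at 7.77 (8.63 to 8.92), and COL1A2 high in ENU replicate 1 at 6.17 (4.5 to 5.11). COL27A1 was high in tBHQ replicate 2 at 7.58 (7.21 to 7.32) and COL8A2 in tBHQ replicate 3 at 3.77 (3.22 to 3.38).

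Among controls, COL16A1 read 3.75 in ETP_DMSO replicate 6 (4.04 to 4.11), COL1A2 5.51 in ETP_DMSO replicate 2 (4.31 to 4.71) and COL10A1 3.32 in QUE_DMSO replicate 3 (3.04 to 3.14). COL5A1 read 3.92 in CUR_DMSO replicate 1 (3.06 to 3.26), COL5A2 3.17 in CUR_DMSO replicate 6 (2.66 to 2.84), COL8A1 3.62 in CUR_DMSO replicate 5 (4.25 to 4.56) and COL5A2 2.42 in MMS_CTL replicate 3 (3.08 to 3.41).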

How the results depend on the processing

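No alternative reversed a called collagen gene. Of the 44 calls, 34 held when any single sample was left out; the other 10 were COL4A6 in NCS, COL7A1 in ENU, GAD and ETP, COL4A5 in GAD, COL12A1, COL16A1 and COL5A1 in tBHQ, and COL10A1 and COL6A1 in MMS. Leaving out each sample in turn gave 0 to 3 collagen calls in NCS, 3 to 6 in tBHQ, 2 to 4 in CUR, 0 to 2 in ETP and 2 to 4 in QUE. With all probe sets of each gene averaged, some of them at background, the count was 9 in MMS, 3 in tBHQ, 2 in ENU, 1 each in CUR and QUE, and 0 each in NCS and ETP. With a filter at 6 it was 8 in MMS, 2 in ENU, 1 each in BRO, CUR and QUE, and 0 in ETP, and with no filter 0 in ETP. In 1 fit of all groups it was 2 in NCS and 4 in ETP, and with no fold minimum 6 in NCS, 9 in BRO, 2 in ETP and 7 in QUE. With the replicate block it was 4 in NCS, 3 in H2O2 and 3 in ETP; where numbers do not pair the samples, the block gave COL22A1 and COL4A5 as calls in ETP (adjusted p 0.02 and 0.036) and none for COL10A1 in MMS (0.068). Beside the values given with the results, the block changed no other collagen call. Apart from the fits without QUE replicate 2 or ETP replicate 2, the share of all genes called under these alternatives was not counted. A higher or lower collagen count under them is therefore no result about collagen genes in particular. Type IV minus fibrillar was -0.19 in GAD and -0.36 in MMS with no filter, and 0.98 and 1.23 with a filter at 6. Fewer genes enter under the filter at 6; other causes were not tested.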
